A study of Homo sapiens with 6 samples.

Results

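Neurotensin is a small secreted peptide that is cut out of a larger precursor, and the genes described here encode that precursor, the receptors that bind the peptide, and enzymes that process such precursors. The set has 10 members of the 28265 genes in the deposited table: NTS, NTSR1, NTSR2, SORT1, FURIN, PCSK1, PCSK5, PCSK6, PCSK7 and CPE. They were found by gene symbol, and all 10 had a row. NTS was selected on its read counts, which earlier work on these files had shown to be higher with LHX2 than in the control, and the others were added for their function with the same results in view. The differences of the members between the groups are therefore given as a description, without p-values.

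The cells were Huh7, an established line from a human hepatocellular carcinoma, harvested 48 h after lentiviral transduction. The control group (CTRL, 3 libraries) received a control vector, although a second label calls these cells parental, and the LHX2 group (3 libraries) received a vector that expresses LHX2, a LIM-homeodomain transcription factor. The sources used here do not give the promoter that drives LHX2 in the vector. Separate cultures are not stated for the replicates, and p-values therefore reflect how far these libraries differ among themselves, and that variation may be technical.

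The libraries held 30029313 to 39653681 gene counts. For LHX2 itself, control replicates 1 to 3 held 1, 2 and 1 counts, and LHX2 replicates 1 to 3 held 2535, 2427 and 3126. All 8 hepatocyte markers examined were detected, and their summed level ran from 41001 to 42210 CPM (counts scaled to a common library size with TMM factors) in the control libraries and from 38635 to 41777 CPM in the LHX2 libraries. That sum is mostly AFP and ALB, neither of which passed the edgeR test. Of the other markers, TF (log2 fold change 0.22) and KRT18 (0.43) were called higher, and HNF4A (-0.26) and AHSG (-1.17, with means of 403 and 179 CPM) lower. The call of TF was lost at 0.06 once the dependence on transcript length and GC content had been taken out. That step used the longest annotated transcript of each gene, 20602 bases for TF, which may not be the one expressed. In cell cultures read as bulk RNA, fewer cells of a kind and less RNA per cell cannot be told apart.

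As background, proneurotensin is cleaved at pairs of basic residues to give neurotensin and neuromedin N, a related peptide from the same precursor. The subtilisin-like proprotein convertases make such cuts, and a carboxypeptidase then trims the exposed basic residues. Neurotensin is best known from the brain and from enteroendocrine cells of the small intestine, where it acts as a transmitter and a gut hormone. NTSR1 and NTSR2 are G protein-coupled receptors, while SORT1 encodes sortilin, a sorting receptor of the VPS10 family that also binds neurotensin.

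The NTS gene lies on chromosome 12 from position 85874295 to 85882992 of GRCh38. Its promoter is shown because NTS is the member with the largest difference between the groups. The 250 bases before the RefSeq start site (GRCh38.p14, chr12:85874045-85874294, plus strand) read, with matches to the searched motifs in capitals:

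NTS promoter: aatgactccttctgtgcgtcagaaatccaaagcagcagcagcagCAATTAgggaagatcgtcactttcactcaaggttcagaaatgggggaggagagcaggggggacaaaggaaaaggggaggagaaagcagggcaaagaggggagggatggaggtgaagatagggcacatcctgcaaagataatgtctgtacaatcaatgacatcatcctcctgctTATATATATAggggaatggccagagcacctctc

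The letters of 6 short motifs were searched on both strands, chosen after this sequence had been seen: TAATTA and TAATTG, which are core sites of LIM-homeodomain factors, TGACTCA (AP-1), TGACGTCA (the cyclic AMP response element), TATAAA and TATATA. The first capitals mark TAATTG read on the minus strand, from 206 to 201 bases before the start. The second capitals mark overlapping copies of TATATA from 33 to 24 bases before the start. The other 4 motifs had no exact match in this window. TAATTG was found in 6.87% and TATATA in 3.96% of 27305 promoter windows of the same length, against 4.49% for TAATTA. Among the 10 member promoters, NTS alone held TAATTG or TATATA, and PCSK1 alone held TGACGTCA. The NTS window had 49.2% G and C, against a median of 58.0% over all windows. A match is only a match of letters, and a site that differs from a motif in any letter was not counted.

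NTS, the precursor gene, was already among the most abundant transcripts of the control cells and was several-fold higher with LHX2. It stood at 1045, 1052 and 1071 CPM in control replicates 1 to 3 and at 5868, 5762 and 5393 CPM in LHX2 replicates 1 to 3. Every LHX2 library was far above every control library, and the spread within each group was small beside the gap. The means were 1056 ± 13.3 and 5674 ± 249.5 CPM (SD, n = 3), a 5.37-fold difference and a log2 fold change of 2.43 ± 0.05 (SE). In shares of all gene counts, NTS took 0.104%, 0.104% and 0.105% of the control libraries and 0.587%, 0.578% and 0.552% of the LHX2 libraries.

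Per length of the longest annotated transcript, NTS ranked 28 to 29 from the top in the control libraries and 3 to 4 in the LHX2 libraries. The ranks cover genes with reads and an annotated length, and the longest transcript of a gene may not be the one expressed. Of all tested genes, 34 had a larger positive log2 fold change than NTS, and 9 of these had a mean of at least 5 CPM. LHX2 itself, which the vector expresses, is counted among the 34 and among the 9. The log2 fold change of NTS lay between 2.40 and 2.49 under the 15 alternative ways of processing.

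NTSR1 and NTSR2, the G protein-coupled receptors of neurotensin, had 0 counts in all 6 libraries. PCSK1, a convertase of the regulated secretory pathway of endocrine and neuronal cells, also had 0 counts in every library. At the depth of these libraries a count of 0 allows a level of up to 0.0757 to 0.0999 CPM (3 counts of each library's total; this covers counting error only). This limit is for each library taken alone, and no lower limit was worked out from the 6 libraries together. These 3 members had no fitted value, and the other 7 passed the filter on low counts.

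**Figure D1:**
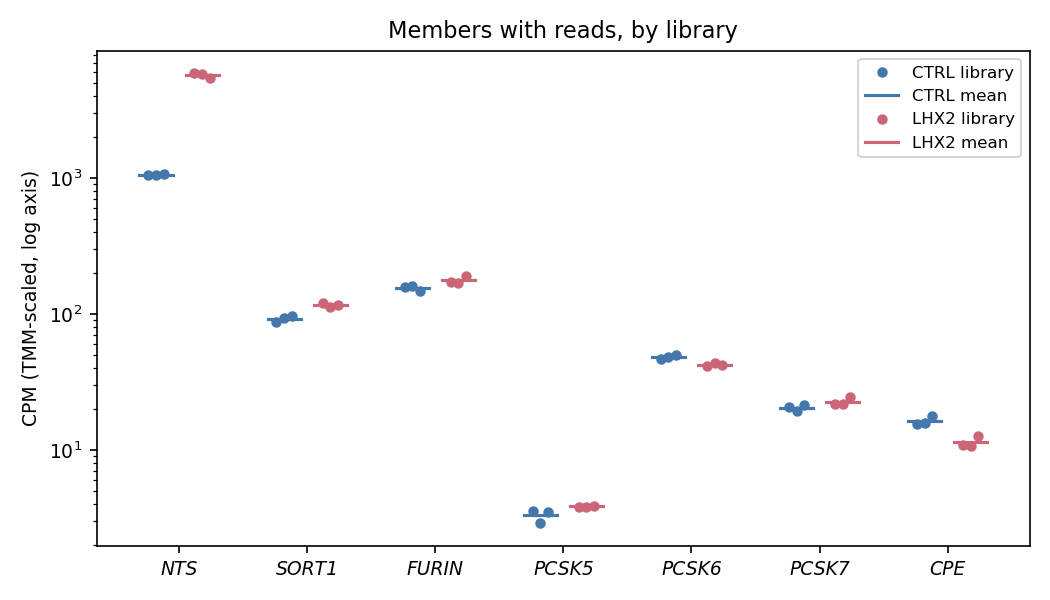
Level of each member with reads in each library, in TMM-scaled CPM on a log axis; points are libraries and lines are group means (blue, CTRL; red, LHX2; n = 3 each). NTS lies at 1045 to 1071 CPM in the control and 5393 to 5868 CPM in the LHX2 libraries, while the other members shift little on this axis. CPM values are not corrected for transcript length, so heights are to be compared within a gene.

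SORT1, on chromosome 1 from 109309575 to 109397918, was the receptor with reads. It stood at 86.8, 93.1 and 96.2 CPM in the control libraries and at 120.5, 112.9 and 116.1 CPM in the LHX2 libraries. The LHX2 libraries were all above the control libraries. The difference was 1.27-fold, a log2 fold change of 0.34 ± 0.05 (SE, n = 3). Sortilin sorts cargo between the Golgi apparatus, endosomes and the cell surface, and in hepatocytes it is known for its part in lipoprotein handling.

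Because NTS differed more than SORT1, the ratio of the transcripts also differed. Per length, NTS was 68.4, 64.2 and 63.3 times the level of SORT1 in the control libraries and 277, 290 and 264 times in the LHX2 libraries. The groups did not overlap in this ratio, which uses the same values as above and adds no independent evidence.

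Of the convertases, 4 had reads. FURIN (chromosome 15, 90868588 to 90883457) encodes the widely expressed convertase of the trans-Golgi network. It was read at 158.6, 161.3 and 147.3 CPM in the control libraries and at 171.9, 169.9 and 189.4 CPM in the LHX2 libraries. The groups did not overlap, but the nearest libraries, control replicate 2 and LHX2 replicate 2, were close. The log2 fold change was 0.19 ± 0.05 (SE), and it was 0.08 and no longer past the threshold once the dependence on transcript length and GC content had been taken out.

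PCSK6, which encodes PACE4, a secreted convertase held at the cell surface and matrix, went the other way. It was read at 47.0, 48.5 and 49.7 CPM in the control libraries and at 41.5, 43.5 and 42.3 CPM in the LHX2 libraries. All LHX2 libraries were below all control libraries, and the log2 fold change was -0.19 ± 0.05 (SE).

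PCSK7 encodes a transmembrane convertase with broad expression. It was read at 20.6, 19.5 and 21.3 CPM in the control libraries and at 21.9, 21.8 and 24.6 CPM in the LHX2 libraries. The groups were adjacent without overlapping, and the log2 fold change was 0.15 ± 0.07 (SE), which did not pass the threshold of the test. TAGLN, a neighbouring gene that overlaps the end of PCSK7, was low, with mean CPM of 0.517 (control) and 1.08 (LHX2). Whether the counting used strand is not given in the sources used here, so the assignment of reads in such an overlap is uncertain.

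PCSK5 was the convertase with the fewest reads. Its counts were 117, 114 and 114 in the control libraries and 115, 117 and 141 in the LHX2 libraries, or 2.91 to 3.60 CPM against 3.83 to 3.91 CPM. With so few counts the log2 fold change of 0.22 had a standard error of 0.13 and did not pass. Removal of the length and GC trend moved it to 0.10 for PCSK5 and to 0.06 for PCSK7.

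CPE, carboxypeptidase E, removes basic residues from the ends of peptides after the convertases have cut (chromosome 4, 165379008 to 165498547). It was read at 15.6, 15.8 and 17.7 CPM in the control libraries and at 10.8, 10.7 and 12.7 CPM in the LHX2 libraries. Every LHX2 library was below every control library. The mean was 1.43-fold lower with LHX2, a log2 fold change of -0.52 ± 0.09 (SE, n = 3), the lowest of the 7 tested members.

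Of these 7 members, NTS, SORT1 and FURIN were called higher and PCSK6 and CPE lower by edgeR (quasi-likelihood, adjusted p under 0.05 by Benjamini-Hochberg), and 2 did not pass. Over all 14533 genes tested, 32.5% were called, 16.6% higher and 15.8% lower. The groups did not overlap in any of the 7, where 44.9% of all tested genes had no overlap. The members were chosen with this contrast known, so nothing is read from these shares.

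**Figure D2:**
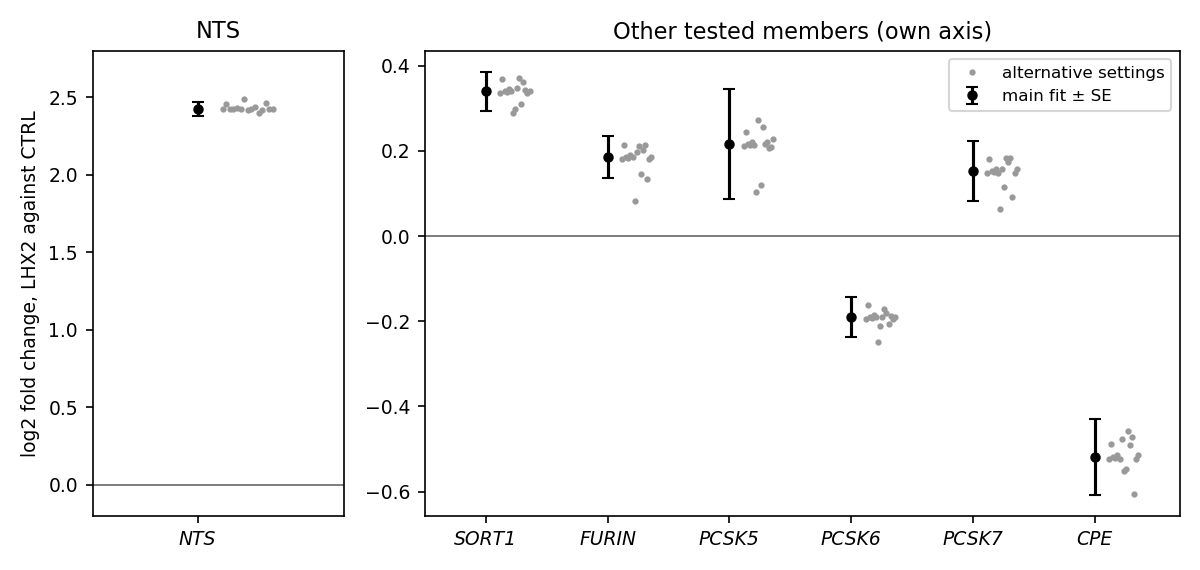
Log2 fold change of LHX2 against CTRL for the 7 tested members, with NTS on an axis of its own; black points are the main fit with its SE (n = 3 per group) and grey points the 15 alternative settings. NTS stays between 2.40 and 2.49, and no member changes sign, while FURIN falls to 0.08 under the removal of the length and GC trend.

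Per length, the order of the tested members was the same in both groups. NTS came first at 854 ± 10.7 CPM per kilobase in the control and 4587 ± 202 in the LHX2 libraries (SD, n = 3). FURIN followed at 35.8 ± 1.71 and 40.8 ± 2.47, SORT1 at 13.1 ± 0.680 and 16.6 ± 0.543, and PCSK6 at 10.97 ± 0.306 and 9.62 ± 0.226 CPM per kilobase. CPE, PCSK7 and PCSK5 came last, at 6.76 ± 0.490, 2.19 ± 0.0983 and 0.350 ± 0.0393 in the control libraries. No neighbours in this order overlapped between libraries of a group, although SORT1 and PCSK6 were close in the control, with a ratio of means of 1.19. These levels use the longest annotated transcript of each gene, which may not be the one expressed.

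Of the 4 convertases with reads, FURIN made up most of the transcripts. Per length, its share of their sum was 73.4%, 73.5% and 70.9% in the control libraries and 76.5%, 75.6% and 77.5% in the LHX2 libraries. The share of PCSK6 was 21.4%, 21.8% and 23.6% in the control libraries and 18.2%, 19.1% and 17.1% in the LHX2 libraries. Neither share overlapped between the groups, and PCSK5 stayed under 0.8% in every library. These shares use the same values as above and add no independent evidence.

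The genes next to NTS were examined because position was not used to choose the members. RASSF9, which encodes a RAS-association domain protein linked to endosomes, lies 37.9 kb from NTS at lower coordinates (chromosome 12, 85800703 to 85836409). It stood at 32.2, 35.0 and 35.8 CPM in the control libraries and at 89.8, 96.4 and 85.5 CPM in the LHX2 libraries. RASSF9 thus rose 2.63-fold, with no overlap between the groups (log2 fold change 1.40 ± 0.06, SE; edgeR adjusted p = 1.0e-10). MGAT4C, an N-glycan branching enzyme gene 72.7 kb away on the other side, stood at 3.55 ± 0.257 and 3.48 ± 0.439 CPM (SD, n = 3). It did not pass the test, with a log2 fold change of -0.03 ± 0.13 (SE, edgeR adjusted p = 0.88).

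The genes whose pattern over the 6 libraries was nearest to that of NTS were VCAN, SLC2A2, SLCO2A1, LRRC31 and VLDLR. Nearness was the Euclidean distance between log2 CPM values, each taken relative to the mean of the control libraries, and it was 0.24, 0.25, 0.45, 0.50 and 0.51 for these genes in that order. VCAN, the matrix proteoglycan versican, stood at 139, 135 and 139 CPM in the control libraries and at 663, 723 and 651 CPM in the LHX2 libraries. SLC2A2, the glucose transporter GLUT2, had 14.6, 14.8 and 14.7 CPM against 74.1, 69.9 and 73.9 CPM. SLCO2A1, a prostaglandin transporter, rose 4.74-fold from a mean of 2.08 CPM. The distance is set mainly by the size of the group difference, so it names genes with a similar fold. With a smaller prior count in the log2 values, 4 of these 5 genes were again among the nearest 5.

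**Figure D3:**
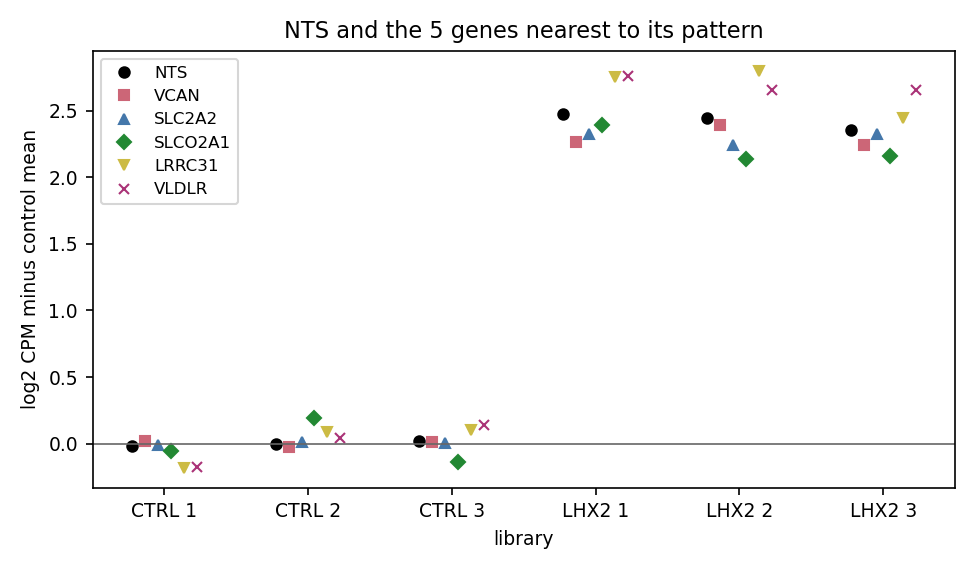
Log2 CPM of NTS and of the 5 genes nearest to its pattern, each minus its own mean over the control libraries, in each of the 6 libraries. All 6 genes lie near 0 in the control libraries and above 2 in the LHX2 libraries, with VCAN and SLC2A2 closest to NTS.

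Of 14 further convertases, carboxypeptidases, amidating and cyclising enzymes and inhibitors, 8 passed the filter on low counts, 3 of them rose and 5 did not pass the test. Among all tested genes 32.5% were called, 16.6% higher and 15.8% lower, and nothing particular to this list is read from its count. PAM, which amidates the ends of peptide hormones, had means of 22.7 ± 0.953 and 30.8 ± 0.523 CPM (SD, n = 3) and rose by 0.44 on the log2 scale (edgeR adjusted p = 5.1e-05). MBTPS1, the site-1 protease of the Golgi apparatus, rose by 0.14 on the log2 scale, and SERPINB8, an inhibitor of furin, by 0.49. The call of MBTPS1 was lost when control replicate 1 (0.12) or 2 (0.14) or LHX2 replicate 3 (0.11) was left out. SERPINB8 did not pass without any one of the control libraries (0.40 to 0.55), without LHX2 replicate 1 (0.33) or in DESeq2 (0.49). PCSK2, the partner of PCSK1 in the regulated secretory pathway, and PCSK1N, an inhibitor of PCSK1, had 0 counts in every library. The median log2 fold change of the list was 0.09, against 0.01 for all tested genes.

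Of 5 tested peptidases that can degrade neurotensin, 2 were called higher, 2 lower and 1 did not pass, where 16.6% of all tested genes were higher and 15.8% lower. With 5 genes, nothing is read from this count. NLN, neurolysin, which cuts neurotensin inside its active part, fell from 107, 109 and 110 CPM to 77.9, 81.1 and 76.4 CPM (log2 fold change -0.46 ± 0.04, SE; edgeR adjusted p = 5.7e-07). PREP, prolyl endopeptidase, rose 1.35-fold, from 56.8 ± 1.79 to 76.4 ± 2.34 CPM (SD, n = 3). ECE1, an endothelin-converting enzyme, rose by 0.24 on the log2 scale, or 0.14 with the length and GC dependence taken out. NRDC, a peptidase of paired basic residues, had a log2 fold change of -0.11 that passed narrowly. It did not pass without control replicate 2 (-0.11) or 3 (-0.09), without LHX2 replicate 1 (-0.11) or 3 (-0.10), or with library totals alone (-0.09). The median of the list was -0.11.

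Of 14 tested genes of the VPS10 family and of sortilin trafficking, 1 was called higher, 1 lower and 12 did not pass (median log2 fold change -0.05), beside 32.5% called among all tested genes. LRPAP1, a chaperone of lipoprotein receptors that also binds sortilin, had means of 193 ± 11.1 and 242 ± 14.4 CPM (SD, n = 3) and rose by 0.33 on the log2 scale (edgeR adjusted p = 1.7e-04), and by 0.17 with the length and GC dependence taken out. GGA2, a Golgi adaptor that recognises sortilin's tail, had a log2 fold change of -0.12 (edgeR adjusted p = 0.033). Its call was lost without any one of the control libraries (-0.13 to -0.11), without LHX2 replicate 1 or 2 (both -0.11), in DESeq2 (-0.12), when genes with few counts were kept (-0.12) and with library totals alone (-0.09). The sortilin relative SORL1 had means of 36.8 and 34.8 CPM and did not pass.

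Below NTSR1, signalling runs through G proteins of the Gq class, phospholipase C, calcium and protein kinases C and D. Of 17 tested genes of this kind 6 were called higher and 11 did not pass, with a median log2 fold change of 0.07. Called genes made up 32.5% of all tested genes, and 16.6% were higher. Nothing is read from a count over 17 genes. One of the 6, GNA14, an alpha subunit of the Gq class, passed the filter on low counts only through the LHX2 libraries. It had 4, 2 and 6 counts in the control and 10, 17 and 22 in the LHX2 libraries, and with a filter of 1 CPM in 3 libraries, which leaves it out, 5 were called higher. RGS2, which limits Gq signalling, rose from 44.0 ± 1.36 to 61.6 ± 2.59 CPM, and PRKD1, a protein kinase D, from 64.1 ± 2.45 to 86.6 ± 2.54 CPM (SD, n = 3). The edgeR adjusted p was 2.5e-06 for RGS2 and 3.3e-06 for PRKD1. ITPR2, a calcium release channel, rose 1.29-fold. NTSR1 itself had no reads, and these genes serve many other receptors.

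Few other peptide hormone genes were expressed. Of 31 further precursors 9 passed the filter on low counts and 9 had 0 counts in every library, among the latter CCK, SST, VIP, GCG and GRP. CGA, NPPB and EDN1 rose, STC2 fell and 5 did not pass, with a median log2 fold change of 0.15. The shares among all tested genes were 16.6% higher and 15.8% lower, and nothing is read from a count over 9 genes. NPPB, the precursor of B-type natriuretic peptide, had 23, 15 and 16 counts in the control and 83, 62 and 75 in the LHX2 libraries, a 4.37-fold rise (edgeR adjusted p = 1.2e-05). STC2, stanniocalcin 2, fell from 87.4 ± 4.89 to 64.0 ± 0.779 CPM (SD, n = 3).

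Markers of neuroendocrine cells were low. The summed level of 8 markers was 9.64 to 10.5 CPM (control) and 13.3 to 14.6 CPM (LHX2). CHGB, a granin of secretory granules, rose from 2.85 ± 0.0985 to 5.86 ± 0.933 CPM (SD, n = 3), and 2 further markers were tested and did not pass. NEUROD1 and NCAM1 had 0 counts in every library. Among markers of other cells, the summed level of 5 fibroblast markers was 9.29 to 10.7 CPM (control) and 35.9 to 38.3 CPM (LHX2). Nearly all of that sum was COL1A2, the only fibroblast marker that passed the filter on low counts. COL3A1 went the other way, with 9, 7 and 8 counts in the control and 2, 2 and 4 in the LHX2 libraries. PDGFRB did too, with 6, 10 and 6 against 1, 1 and 2 counts, while COL1A1 overlapped between the groups. The 4 immune markers summed to 9.19 to 10.7 and 17.5 to 18.5 CPM, mostly CD68. The 4 endothelial markers summed to 3.75 to 4.28 and 2.78 to 3.22 CPM, with CDH5 and KDR at 0. The part of these genes in the difference of NTS was not tested.

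Substrates of furin include receptors, growth factors and proteases whose precursors it cuts. Of 24 tested, 16 rose, 1 fell and 7 did not pass, against 16.6% higher and 15.8% lower among all tested genes, and the median log2 fold change was 0.38. With the length and GC dependence taken out, 16 were again called higher, but INSR (0.21 in the main fit) lost its call at 0.10. The call of PDGFA (0.40) was lost without control replicate 1 (0.31) or LHX2 replicate 2 (0.34). The list was drawn up with earlier results for several of its genes known. It is no independent evidence of a direction, and nothing is read from its count or median. NOTCH3 rose by 0.73, SEMA3C by 0.69, ITGAV by 0.69 and BMP2 by 0.62 on the log2 scale. ITGAV, the alpha V integrin, went from 249.1, 247 and 251.3 CPM to 399, 417 and 391 CPM. BMP2, a bone morphogenetic protein, went from 37.0 ± 1.52 to 56.8 ± 0.664 CPM (SD, n = 3). NOTCH3 and SEMA3C were low, with control means of 1.65 and 1.38 CPM. The gene that fell was ITGA6, an integrin alpha subunit (log2 fold change -0.20), named after its value was seen.

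**Figure D4:**
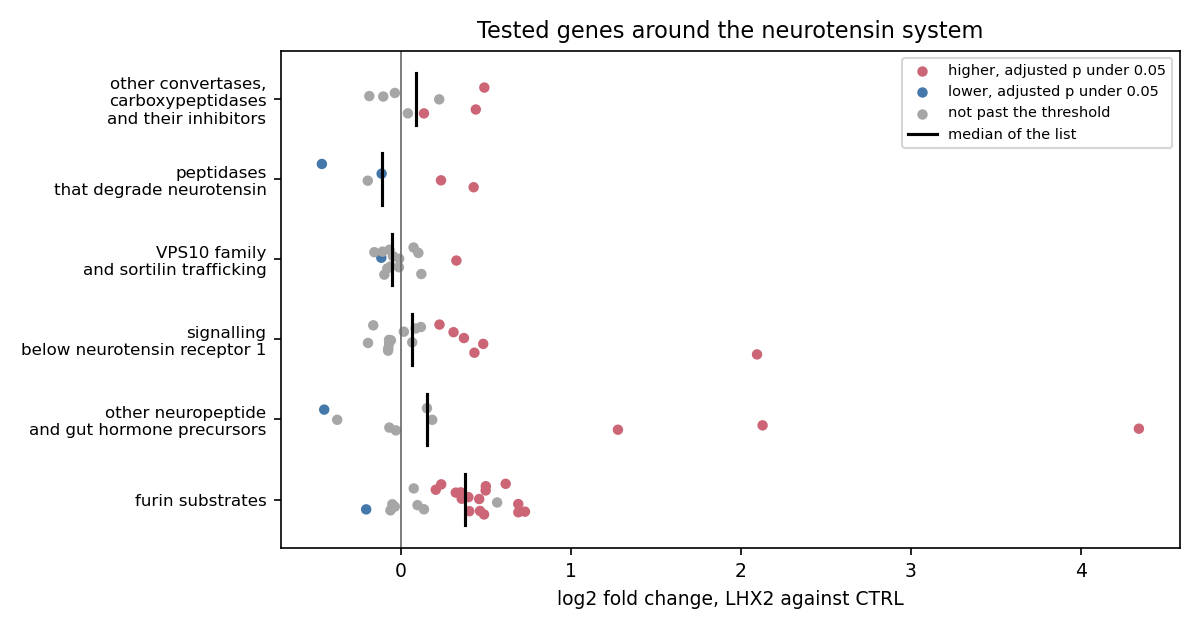
Log2 fold change of LHX2 against CTRL for each tested gene of 6 lists around the neurotensin system; red points passed higher, blue points passed lower, grey points did not pass (edgeR, adjusted p under 0.05), and black bars are list medians. Medians lie between -0.11 and 0.38, and the points farthest to the right are CGA at 4.34 and NPPB at 2.13.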

How the data were processed

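RNA of 3 control and 3 LHX2 libraries was sequenced after a stranded mRNA preparation, per the labels' protocols. The authors deposited raw counts of reads per gene, and featureCounts 2.0.0, TopHat2 2.1.1, Bowtie2 2.3.5.1, SAMtools 1.9 and build GRCh38 are named in the submitters' processing notes. Which gene models and strand setting the counting used is not given in the sources used here. A control column whose name had another form was taken as control replicate 1 by its number.

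Genes passing edgeR filterByExpr (minimum count 10, total 15, proportion 0.7) were TMM-scaled and tested with the edgeR 4.0.16 quasi-likelihood test (R 4.3.3), with Benjamini-Hochberg adjustment over all tested genes at 0.05. SEs came from the F statistic, and log2 CPM used a prior count of 2. Lengths and GC, also in the removal of their trend, are of the longest GENCODE 29 transcript, which may not be the one expressed. Positions and promoters are from RefSeq by gene ID or symbol. The test was run on simulated counts with set fold changes and a fixed dispersion of 0.003, not estimated from these libraries. That run does not check the calls made here. Members and lists were chosen with earlier results of these data known. Genes named were the members, up to 4 called genes per list with the largest changes, the 5 nearest patterns among genes of at least 5 CPM, and the tested neighbours of NTS. ITGA6, SORL1, PRKD2, INSR, PDGFA, the genes at 0, the markers and the other neighbours were named after values were seen. Alternatives used DESeq2 1.42.0, limma 3.58.1, other scalings and filters, a length and GC trend (loess span 0.3), a replicate block and each library left out. A listed marker gene is not reported here.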

Additional observations from a re-analysis of the deposited data

How the results depend on the processing

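Over all genes, 4716 were called, between 3549 and 4567 when 1 library was left out, and between 3768 and 5032 under the other alternatives, all within 1.5 times of the main count. As a description of members chosen with this contrast known, the ranges of the log2 fold change over the 15 alternatives were 2.40 to 2.49 for NTS, 0.29 to 0.37 for SORT1, 0.08 to 0.21 for FURIN, -0.25 to -0.16 for PCSK6, and -0.60 to -0.46 for CPE. The call of FURIN was lost under the removal of the length and GC trend only, and the cause was not tested. Under that removal 1 further convertase or carboxypeptidase, 3 sortilin trafficking genes and 3 signalling genes were called lower.

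Same-numbered control and LHX2 libraries did not deviate together (correlations of -0.06, -0.07 and -0.19 for numbers 1 to 3), so the numbers were not taken as pairs. With the replicate number as a block, 3768 genes were called. Of the called genes named, SERPINB8 (edgeR adjusted p = 0.051), NRDC (adjusted p = 0.10), GGA2 (adjusted p = 0.080) and RFK (adjusted p = 0.072) no longer passed under the block. PRKD2 (edgeR adjusted p = 0.068) did not pass under the block either. Depth limits PCSK5, GNA14 and the genes without reads.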

Other observations

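The nearest tested genes on each side of the other 9 members gave 18 neighbours, of which 3 rose, 3 fell and 12 did not pass the edgeR test at an adjusted p under 0.05. Among all tested genes 32.5% were called, 16.6% higher and 15.8% lower, so the count is near that of genes at large and is no result about the neighbours. The genes below were named after their values were seen. CABLES2, 302 kb from NTSR1, rose by 0.32, CAST, which overlaps PCSK1, by 0.20, and TAGLN, which overlaps PCSK7, by 1.05 on the log2 scale. RFK, 22.6 kb from PCSK5, fell by 0.15, and SNRPA1, 8.7 kb from PCSK6, by 0.18. MSMO1, a sterol synthesis enzyme gene 35.8 kb from CPE, fell by 0.29. The call of RFK was lost without any one of the control libraries (-0.16 to -0.14), without LHX2 replicate 1 (-0.16) or 2 (-0.11), with library totals alone (-0.12) and with the length and GC dependence taken out (-0.10). That of SNRPA1 was lost without control replicate 1 (-0.17) or 2 (-0.16). PSRC1 and PSMA5, on either side of SORT1, differed by 0.02 ± 0.09 and -0.06 ± 0.04 (SE), and BLM and FES, on either side of FURIN, by -0.02 ± 0.05 and 0.11 ± 0.07 (SE), and none of these 4 passed.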
